A study of Mus musculus with 14 samples.

Results

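The 7 mouse probes for miR-150, miR-342, miR-181a, miR-181b, miR-181c, miR-326 and miR-345 were followed across macrophage arrays. The set is named for miRNAs known from lymphocytes, which does not hold equally for every member. The probes were chosen by name, as those whose array name is the mouse prefix followed by one of these 7 names. They make up 7 of the 343 probes named for mouse miRNAs. Each was read in 3 spots per array. Peritoneal macrophages of BALB/c mice were elicited with thioglycollate, a sterile irritant, and taken 3 days later, or by a peritoneal implant of the filarial nematode Brugia malayi, and taken 21 days later. Both elicitations were done in wild type mice (WT) and in mice labelled as IL4 receptor KO (IL-4R KO), which lack the receptor that IL-4 and IL-13 signal through in alternative activation. Total RNA of 14 samples was hybridised to 1 array each: 3 of thioglycollate wild type, 3 of thioglycollate IL-4R KO, 4 of nematode wild type and 4 of nematode IL-4R KO. Cells that stuck to culture plates for 4 hours were kept, and by flow cytometry over 80% of them carried the macrophage markers F4/80 and CD11b, which leaves room for other peritoneal cells. The labels do not say whether replicates came from separate animals, and p-values measure the spread between these samples only. Elicitation and time of harvest cannot be told apart, and the arrays hold no probe that could check the receptor's deletion.

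A mature miRNA loads into an Argonaute complex and represses messenger RNAs that pair with its seed, the bases near its 5′ end. miR-150 is abundant in mature B and T cells, where it represses the transcription factor Myb, and miR-342 is expressed in blood cell lineages from an intron of Evl. miR-181a sets the sensitivity of T cell receptor signalling in developing T cells, miR-181b restrains activation-induced deaminase in B cells, and miR-326 promotes Th17 differentiation by repressing Ets1. Macrophages and other blood cells can express some of them too, so their signal alone does not identify a cell type.

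The array uses older names. The mature sequences that correspond to the member names, from RefSeq with the assembly GRCm38.p6, are given here because the 3 miR-181 probes aim at related targets. Letters run 5′ to 3′ and capitals mark the seed, bases 2 to 8. A sequence was matched for 6 of the 7 members, and miR-150 is named only.
miR-181a-5p: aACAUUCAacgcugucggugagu
miR-181b-5p: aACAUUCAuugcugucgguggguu
miR-181c-5p: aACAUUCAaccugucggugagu
miR-181d-5p: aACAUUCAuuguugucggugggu
miR-342-3p: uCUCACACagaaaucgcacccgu
miR-326-3p: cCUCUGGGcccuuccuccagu
miR-345-5p: gCUGACCCcuaguccagugcuu

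The miR-181 miRNAs share 1 seed, which 4 of the 1679 mature mouse miRNAs in the RefSeq table carry, miR-181d among them. miR-181a and miR-181c are 1 base apart by edit distance, miR-181b and miR-181d 2, miR-181a and miR-181b 4, and miR-181b and miR-181c 5. Signals of the miR-181 probes are thus not certain to be separate. The seed of miR-342-3p and that of miR-345-5p are each carried by 1 mature miRNA in the table, and that of miR-326-3p also by miR-330-5p. miR-181a is encoded at chr1:137966468-137966490 and chr2:38852741-38852763, both on the plus strand, with a miR-181b copy beside each. The gaps between the paired hairpins are 97 bases on chromosome 1 and 1019 bases on chromosome 2, where both lie within the span of Nr6a1. miR-181c and miR-181d lie 85 bases apart on the minus strand of chromosome 8, miR-181c at chr8:84178924-84178945. miR-342-3p lies at chr12:108658680-108658702 within the span of Evl, and miR-345-5p at chr12:108836989-108837010. miR-326-3p lies at chr7:99552328-99552348 within the span of Arrb1, which encodes beta-arrestin 1. The Mir150 hairpin gene lies at chr7:45121757-45121821, and no other gene of the table spans it.

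Signals near those of empty spots limit what can be read from these probes. Across arrays the 95th percentile of net signal (foreground minus local background) of blank and negative control spots ran from 12.6 to 111 intensity units, and 41 to 279 of the 343 mouse probes stood above it. Nematode wild type replicate 4, with the fewest mouse probes above blanks, had a correlation of 0.835 with the mean of the rest of its group, against 0.936 to 0.977 on the other 13 arrays. miR-342 and miR-326 each stood above that percentile on 11 of 14 arrays and miR-150 on 8. miR-181a and miR-181b did so on 3 arrays each, miR-345 on 2 and miR-181c on 1, so that 5 of 7 members passed a filter of 3 arrays above blanks. The number above blanks was 0 of 7 on nematode wild type replicates 1 and 4, the arrays with the highest blank percentiles (96.2 and 111), and 7 of 7 on thioglycollate wild type replicate 3, with the lowest (12.6). Log2 intensities below are background-corrected with an offset of 50 and quantile normalized, which sets a floor just under 6 and compresses changes of dim probes.

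**Figure D1:**
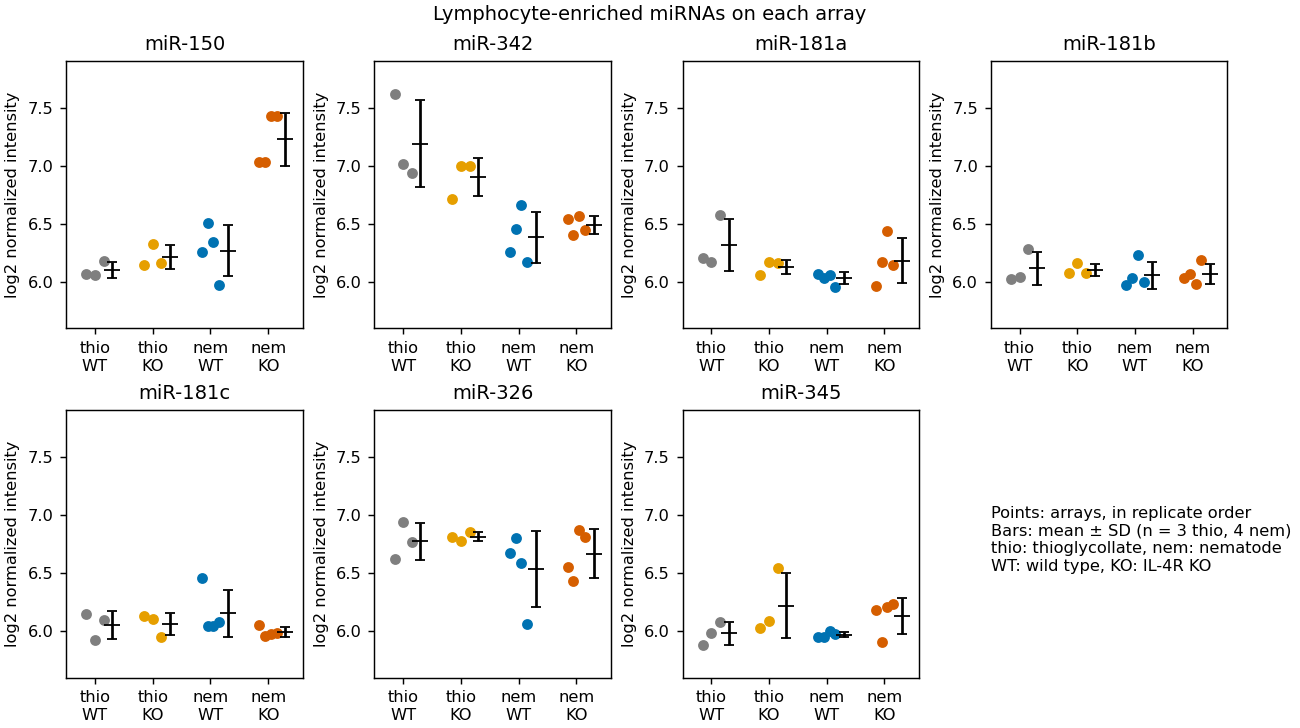
Log2 normalized intensity of each of the 7 members on each of the 14 arrays, by group, with the mean and SD of the group as bars (n = 3 or 4). The 4 nematode IL-4R KO arrays lie above all others for miR-150, the 6 thioglycollate arrays lie above the 8 nematode arrays for miR-342, and the 3 miR-181 probes stay between 5.92 and 6.57.

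miR-150 was high in 1 of the 4 groups, the nematode-elicited macrophages of IL-4R KO mice. Its log2 intensity was 7.03, 7.03, 7.42 and 7.42 on the 4 nematode IL-4R KO arrays. In nematode wild type it was 6.26, 6.51, 6.34 and 5.97. Thioglycollate gave 6.15, 6.33 and 6.17 in IL-4R KO and 6.07, 6.06 and 6.18 in wild type. All 4 nematode IL-4R KO arrays lay above the other 10, and the other 3 groups overlapped their neighbours in the order of means. How many of all mouse probes set 1 group apart from the other 3 was not counted. Group means were 7.23 ± 0.23 (SD, n = 4) in nematode IL-4R KO, 6.27 ± 0.22 (SD, n = 4) in nematode wild type, 6.21 ± 0.10 (SD, n = 3) in thioglycollate IL-4R KO and 6.10 ± 0.07 (SD, n = 3) in thioglycollate wild type. Before normalization the net signal was 97.1, 101.7, 158.3 and 109.9 units in nematode IL-4R KO, against 40.0, 33.7, 18.8 and 9.80 in nematode wild type. Blank spots were exceeded by miR-150 on 4 of 4 nematode IL-4R KO arrays, 2 of 4 nematode wild type arrays and 1 of 3 arrays in each thioglycollate group. In whole preparations, more cells of a type that expresses a miRNA and more of it per cell cannot be told apart.

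After nematode implantation the miR-150 level of wild type macrophages was 1.94-fold below that of IL-4R KO macrophages (log2 difference -0.96, SE 0.13, 95% CI -1.23 to -0.68, limma adjusted p = 0.000573). It was the 1 member of 7 past the threshold in this comparison, where 1.75% of all 343 mouse probes passed in either direction. It was also the 1 member whose groups did not overlap, against 9.04% of all probes. The members had a median log2 difference of -0.13, with 6 of 7 negative, beside -0.0040 over all mouse probes. The share of all mouse probes with a negative difference was not counted. Of the 6, miR-181a, miR-181b and miR-345 stood above blanks on at most 1 array of either group. With plain background subtraction the log2 difference was -2.01. The call held under each of 16 other processing settings, of which plain subtraction and the deposited value table are the same computation, and with any 1 of the 14 arrays left out.

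In IL-4R KO mice the miR-150 level of nematode-elicited macrophages was 2.02-fold above that of thioglycollate-elicited ones (log2 difference 1.01, SE 0.14, 95% CI 0.72 to 1.31, limma adjusted p = 0.00107). Again it was 1 of 7 members past the threshold, where 1.46% of all mouse probes passed. This comparison uses the same 4 nematode IL-4R KO arrays as the genotype comparison after nematode implantation, so the results are not independent. With plain subtraction the log2 difference was 2.11, and here too the call held under the 16 other settings and with any 1 array left out. In wild type mice the same contrast gave a log2 difference of 0.17 (SE 0.14, 95% CI -0.13 to 0.46, limma adjusted p = 0.729), and the genotypes after thioglycollate gave -0.11 (SE 0.15, 95% CI -0.43 to 0.20, limma adjusted p = 1).

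Whether the genotype difference of miR-150 depended on the elicitation was tested by the interaction term. It was -0.84 on the log2 scale (SE 0.19, 95% CI -1.26 to -0.43) with a limma adjusted p of 0.0935, so 0 of 7 members passed the threshold over all probes, against 0.583% of all mouse probes. Its unadjusted p was 0.000818, the third smallest of 343. It also missed the threshold in 23 of 29 alternative fits. Under 11 of 15 other settings the limma adjusted p ran from 0.0573 to 0.592, and with 12 of the 14 arrays left out in turn it ran from 0.0584 to 0.335. It passed under 4 other ways of normalizing, with a limma adjusted p of 0.0357 for median scaling, 0.00407 for cyclic loess, 0.0476 for no normalization and 0.0214 for quantile normalization over mouse probes alone. It also passed without nematode wild type replicate 2 (limma adjusted p = 0.0452) or replicate 4 (0.0454).

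Slides and other miRNA lists differed between the same groups. The nematode IL-4R KO arrays lie on slides of their own, replicates 1 and 2 on slide 15, where miR-150 was 7.03 on both, and replicates 3 and 4 on slide 6, where it was 7.42 on both. These equal values are ties of rank, since quantile normalization gives equal ranks the same value. Before normalization the net signal of miR-150 was 97.1 and 101.7 units on slide 15, and 158.3 and 109.9 on slide 6. Slide and group cannot be told apart there, and the groups were scanned one after another, apart from slide 12, which holds arrays of both thioglycollate groups. A fit with the slide as a random block had an estimated correlation of -0.02 over all probes and is nearly the reported fit, so it does not bear on a slide effect for miR-150. The 10 probes linked to stromal cells had a summed net signal of 348 to 877 units in nematode wild type and 207 to 279 in nematode IL-4R KO. Of the 10, 1 was past the threshold between these groups, miR-125b (log2 difference 1.29, limma adjusted p = 0.000136), and 8 of 10 stood above blanks on none of the nematode IL-4R KO arrays. Such a sum is weighted to bright probes, and miR-125b had the highest nematode wild type mean of the list, 7.93. Log2 differences of the rest ran from -0.10 (miR-199a) to 0.80 (miR-199b). Among them miR-143 was at 0.05, miR-145 at 0.01 and miR-214 at 0.08. The 6 myeloid and granulocyte probes summed to 4120 to 7925 units in nematode wild type and 5259 to 8821 in nematode IL-4R KO. Past the threshold was 1 of the 6, miR-223 (log2 difference 1.34, limma adjusted p = 0.000697). The list had 2 positive and 4 negative differences, with a median of -0.06 and miR-142-3p lowest at -0.91. None of the 3 erythroid or 2 endothelial probes stood above blanks in nematode IL-4R KO. In nematode wild type 1 of 3 and 1 of 2 did so on at least 1 array, and none was past the threshold between these groups. The 7 epithelial probes summed to 85.6 to 243 and 118 to 187 units, with 2 of 7 above blanks on at least 1 nematode IL-4R KO array. The part of these in the miR-150 difference was not tested.

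**Figure D2:**
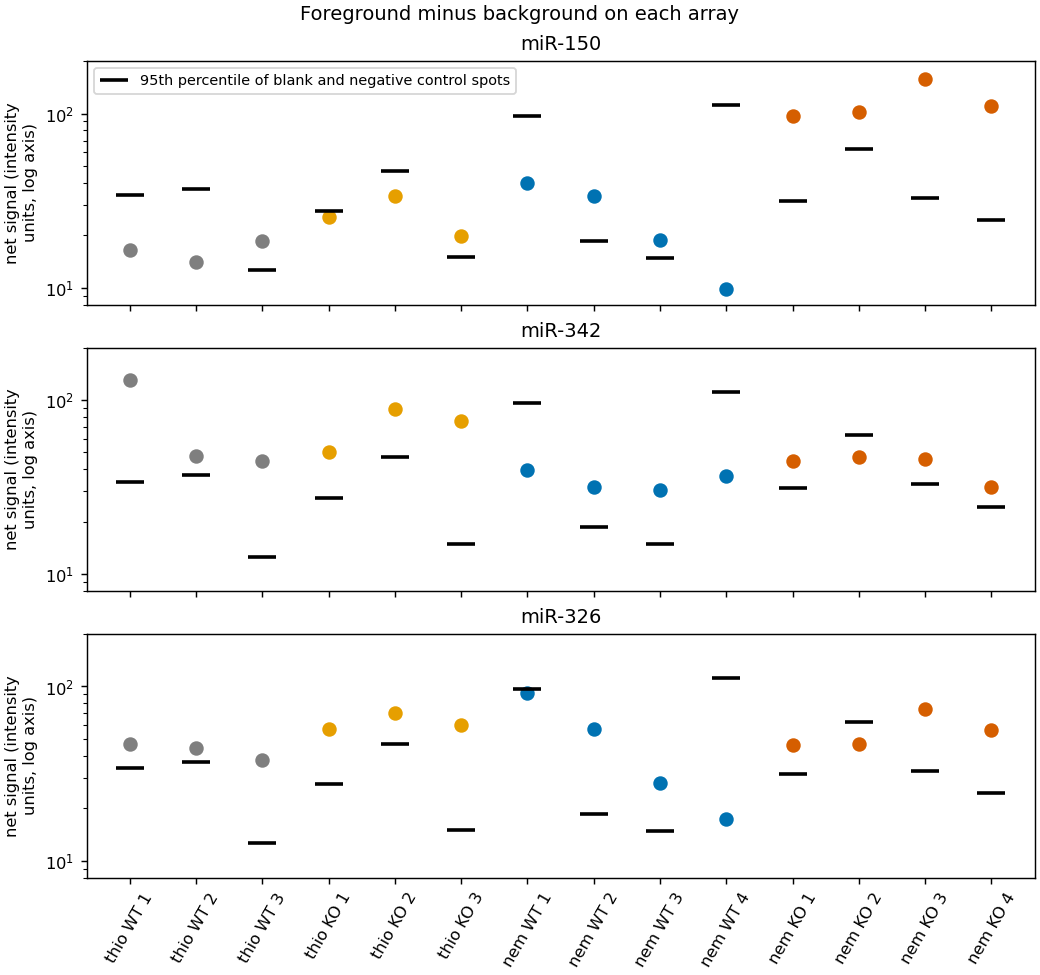
Net signal (foreground minus local background, intensity units, log axis) of miR-150, miR-342 and miR-326 on each array, with the 95th percentile of blank and negative control spots of that array as a black dash. miR-150 stands above the dash on all 4 nematode IL-4R KO arrays, and all 3 miRNAs lie below it on nematode wild type replicates 1 and 4.

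After normalization miR-342 lay lower on every nematode array than on every thioglycollate array, in both genotypes. No slide held arrays of both elicitations, so slide and elicitation cannot be told apart. Its log2 intensity was 7.62, 7.02 and 6.94 in thioglycollate wild type, and in thioglycollate IL-4R KO it was 6.72 on replicate 1 and 7.0 on replicates 2 and 3. Nematode macrophages gave 6.25, 6.45, 6.66 and 6.17 in wild type and 6.54, 6.41, 6.57 and 6.45 in IL-4R KO. The 6 thioglycollate arrays all lay above the 8 nematode arrays, while the genotypes overlapped within each elicitation. The share of all mouse probes separated in this way over pooled groups was not counted. The closest arrays of the separate sets were thioglycollate IL-4R KO replicate 1, at 6.72, and nematode wild type replicate 3, at 6.66. Means were 7.19 ± 0.37 (SD, n = 3) in thioglycollate wild type, 6.90 ± 0.16 (SD, n = 3) in thioglycollate IL-4R KO, 6.49 ± 0.08 (SD, n = 4) in nematode IL-4R KO and 6.39 ± 0.22 (SD, n = 4) in nematode wild type. Neighbours in that order overlapped except thioglycollate IL-4R KO and nematode IL-4R KO. Before normalization the elicitations overlapped across genotypes. Net signal was 44.9 units on thioglycollate wild type replicate 3, against 47.3 and 45.6 on nematode IL-4R KO replicates 2 and 3. Within each genotype the lowest thioglycollate net signal (44.9 in wild type, 50.3 in IL-4R KO) lay above the highest nematode one (39.6 and 47.3).

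In wild type mice the miR-342 level of nematode-elicited macrophages was 1.75-fold below that of thioglycollate-elicited ones (log2 difference -0.81, SE 0.16, 95% CI -1.15 to -0.46, limma adjusted p = 0.0297). It was the 1 member of 7 past the threshold, where 0.875% of all mouse probes passed. The groups of 2 of the 7 members, miR-342 and miR-181a, did not overlap, against 7.87% of all probes. The call depended on the processing: it was lost under 7 of 16 other settings, with adjusted p from 0.106 to 0.680 there, and under 8 of the 14 settings that leave out 1 array, with adjusted p from 0.0520 to 0.114. Those arrays were thioglycollate wild type replicate 1, thioglycollate IL-4R KO replicates 2 and 3, replicates 1 and 2 of nematode wild type, and every nematode IL-4R KO array but replicate 1. Thioglycollate wild type replicate 1 carried the highest value, 7.62 or 130.5 net units against 47.8 and 44.9 on the other arrays of its group, and without it the log2 difference was -0.59 (limma adjusted p = 0.114); with plain subtraction of background it was -1.63 with all arrays. The 6 myeloid and granulocyte probes summed to 6947 to 11216 net units in thioglycollate wild type and 4120 to 7925 in nematode wild type, with 1 of 6 past the threshold, miR-146, and the 10 stromal probes to 240 to 351 and 348 to 877, with 0 of 10. Their part in the miR-342 difference was not tested. In IL-4R KO mice the difference was -0.41 (SE 0.16, 95% CI -0.76 to -0.06, limma adjusted p = 0.363), which did not pass the threshold although the 2 groups did not overlap. Non-overlap held there for 2 of 7 members, miR-150 and miR-342, against 15.7% of all probes. The interaction for miR-342 was -0.39 (SE 0.23, limma adjusted p = 0.904), so the elicitation difference was not shown to differ between genotypes.

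The genotypes overlapped for miR-342 after either elicitation. Wild type against IL-4R KO gave a log2 difference of -0.10 after nematode implantation (SE 0.15, 95% CI -0.43 to 0.22, limma adjusted p = 0.761) and 0.29 after thioglycollate (SE 0.17, 95% CI -0.08 to 0.66, limma adjusted p = 1). The miR-342 level did not run with that of miR-150: over the 14 arrays Pearson's r was -0.38, and 0.26 after the group means were taken out, a description over arrays that share groups and slides.

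**Figure D3:**
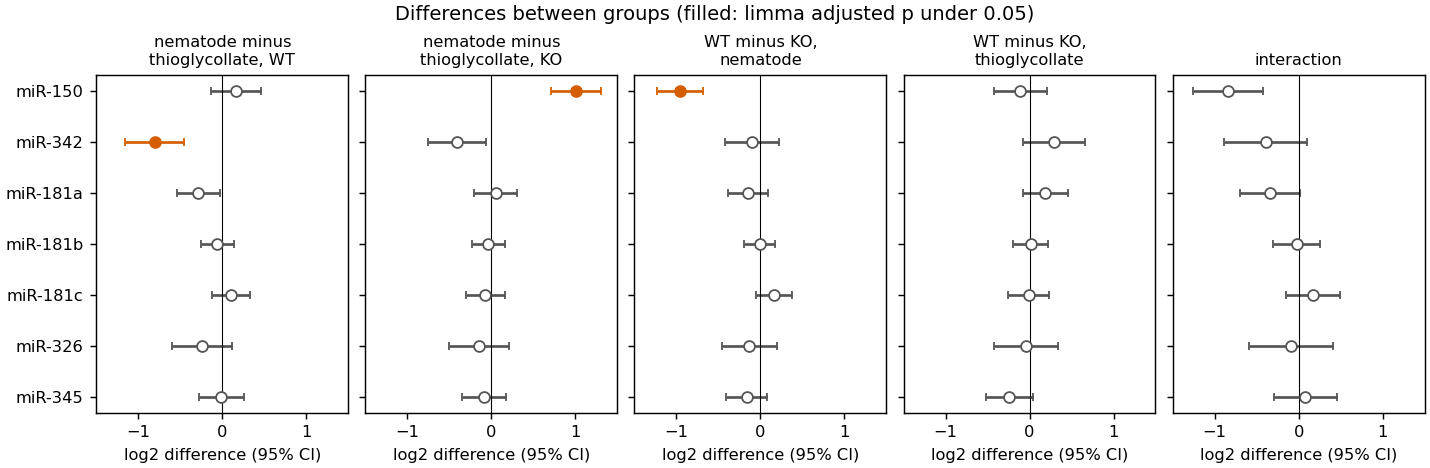
Log2 difference with its 95% confidence interval for each member in the 4 comparisons between groups and in the interaction of genotype and elicitation. Filled points passed the limma threshold of 0.05 on the adjusted p: miR-342 in wild type at -0.81, miR-150 in IL-4R KO at 1.01 and miR-150 between genotypes after nematode implantation at -0.96.

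The miR-181 probes stayed near the floor in every group. miR-181a gave 6.21, 6.17 and 6.57 in thioglycollate wild type and 6.06, 6.17 and 6.16 in thioglycollate IL-4R KO. It gave 6.07, 6.04, 6.06 and 5.96 in nematode wild type and 5.97, 6.17, 6.44 and 6.15 in nematode IL-4R KO. Thus the nematode wild type arrays lay below those of thioglycollate wild type (log2 difference -0.29, SE 0.12, 95% CI -0.54 to -0.03, limma adjusted p = 0.421), without passing the threshold, and on none of them did miR-181a exceed blanks. Its thioglycollate genotypes touched without overlap, with a difference of 0.19 (SE 0.13, limma adjusted p = 1), the 1 member of 7 so separated, against 11.1% of all probes. On slide 12, the one slide that holds both genotypes, the wild type array lay 0.52 above the IL-4R KO array for miR-181a and 0.21 for miR-181b, while miR-150 differed by 0.03 and miR-342 by 0.22. After thioglycollate 0 of 7 members and 0.292% of all mouse probes passed the limma threshold, with 14 of 343 at an unadjusted p under 0.05.

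miR-181b ranged from 5.97 to 6.28 and miR-181c from 5.92 to 6.46 over the 14 arrays. Group means of miR-181b lay between 6.06 and 6.12 and overlapped throughout. Its log2 differences ran from -0.06 to 0.01 over the 4 comparisons, with limma adjusted p of 0.902 or more, and the 95% interval reached -0.25 and 0.14 in wild type. For miR-181c the differences ran from -0.07 to 0.16, and the largest, between the genotypes after nematode implantation (95% CI -0.05 to 0.38, limma adjusted p = 0.532), rested on nematode wild type replicate 1, which read 6.46 against 6.04, 6.04 and 6.07. That array had a blank percentile of 96.2 units, above its net signal for miR-181c of 73.5. Although miR-181a and miR-181b share 2 clusters, their correlation over the 14 arrays was 0.38, and that of miR-181a and miR-181c was -0.17. The star arm miR-181a*, from the other strand of the hairpin, stood above blanks on 0 of 14 arrays, and the probe for human miR-181d on 1.

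miR-326 stood above blanks on 2 or more arrays of every group, and none of its differences passed the threshold. It read 6.62, 6.93 and 6.77 in thioglycollate wild type and 6.80, 6.78 and 6.86 in thioglycollate IL-4R KO. In nematode wild type it was 6.67, 6.80, 6.59 and 6.06, and in nematode IL-4R KO 6.55, 6.43, 6.87 and 6.81. Every group overlapped the next, and nematode wild type replicate 4, at 6.06, lay below all other arrays. Log2 differences ran from -0.24 (SE 0.16, 95% CI -0.59 to 0.11, limma adjusted p = 0.658) in wild type to -0.04 between genotypes after thioglycollate. Within groups miR-326 and miR-150 moved together from array to array, with r of 0.82 after the group means were taken out against 0.14 before, over 14 arrays that share slides and labelling. That r was the highest among pairs of members, and within-group values over all mouse pairs were not summarized. Nematode wild type replicate 4 was also the lowest array for miR-150, at 5.97, and the part of array quality was not tested.

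miR-345 lay between 5.88 and 6.54, and neither it nor miR-181c stood above blanks on any nematode array. Its highest reading was 6.54 on thioglycollate IL-4R KO replicate 3, against 6.03 and 6.09 on the other arrays of that group. Its log2 differences ran from -0.24 (SE 0.13, 95% CI -0.52 to 0.04, limma adjusted p = 1) between genotypes after thioglycollate to -0.01 in wild type. A second probe, named for human and cow miR-345, stood above blanks on 2 of 14 arrays, as did the mouse probe. The zebrafish-named miR-150 probe stood above blanks on 0 of 14, also in the group where the mouse miR-150 probe was high.

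**Figure D4:**
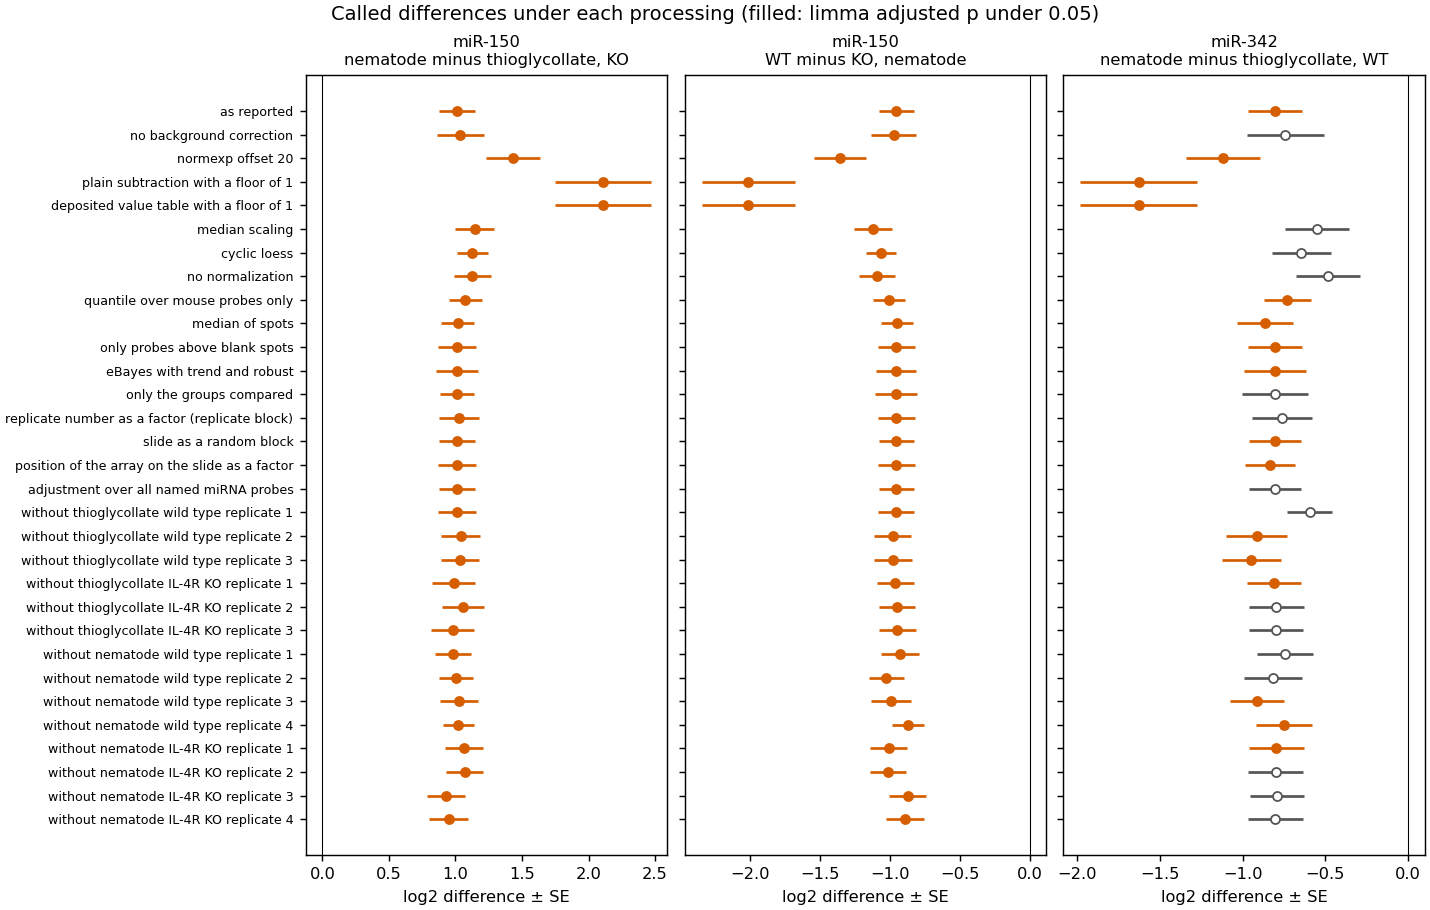
Log2 difference with its SE for the 3 differences that passed the threshold, as reported, under 16 other processing settings and with each of the 14 arrays left out, with filled points where the limma adjusted p was under 0.05. Both miR-150 differences stay filled throughout, while that of miR-342 is open under 15 of the 30 alternatives.

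The probes whose pattern over the 14 arrays was most like each member were listed for the 5 members that passed the filter on blanks. For miR-150 they were miR-689 (Pearson's r 0.86), the joint probe for miR-291a-5p and miR-291b-5p (0.83) and miR-714 (0.82). Within groups the likeness fell to 0.07 for miR-689, whereas it was 0.64 for the miR-291 probe and 0.89 for miR-714. miR-689 passed the threshold in the same comparisons as miR-150, with a log2 difference of -2.27 between the genotypes after nematode implantation (SE 0.34, limma adjusted p = 0.00131) and 1.85 between elicitations in IL-4R KO (SE 0.37, limma adjusted p = 0.0231). Since miR-689 was picked for its likeness to miR-150 over the same arrays, these calls are no separate observation. For miR-342 the nearest were miR-107 (0.86), from an intron of Pank1, miR-18 (0.83), from the proliferation-linked miR-17-92 cluster, and miR-146 (0.79), a brake on NF-kB signalling. For miR-326 they were let-7g (0.88), miR-142-3p (0.85), a miRNA of all blood cells, and miR-691 (0.84). miR-181a was most like miR-224 (0.82), miR-293 (0.72) and miR-129-5p (0.69), and miR-181b like miR-206 (0.72), miR-380-5p (0.69) and miR-469 (0.68). The 6 probes nearest to these miR-181 members stood above blanks on 1 to 6 arrays.

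Other miRNAs linked to lymphocytes, 20 probes for 19 miRNAs, showed 1 call or none in each comparison. The list shares miR-146, miR-142-3p, miR-142-5p and miR-21 with the 6 myeloid probes and is no separate measure of lymphocytes. In wild type mice 1 of 20 fell after nematode implantation, miR-146 (log2 difference -0.76, SE 0.12, limma adjusted p = 0.00504), where 0.875% of all mouse probes passed, and the median of the list was -0.29 beside -0.02 over all mouse probes. In IL-4R KO mice 1 of 20 fell, miR-34a (-1.35), a p53-induced miRNA that represses Foxp1 in developing B cells, where 1.46% of all mouse probes passed, and the list's median was -0.16 beside -0.04. miR-34a was also the 1 of 20 lower in wild type after thioglycollate (-1.16), with a list median of -0.05 and 0.292% of all mouse probes passing. It was the 1 of 20 with an interaction past the threshold (1.02), against 0.583% of all mouse probes. Between the genotypes after nematode implantation 0 of 20 passed limma's adjusted threshold, against 1.75% of all mouse probes, with a list median of -0.14. At an unadjusted p under 0.05, limma had 43 of 343 mouse probes. In that comparison miR-155, induced in activated lymphocytes and macrophages, gave -0.12 (SE 0.23), miR-146 -0.34 (SE 0.11), miR-142-3p -0.91 (SE 0.46) and miR-142-5p 0.10 (SE 0.58). Between elicitations in IL-4R KO, where miR-150 was higher, the same 4 gave 0.49, -0.19, 0.01 and -0.01.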

How the data were processed

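Small RNA levels were measured on 14 one-colour miRCURY LNA arrays labelled with Hy3, 2 arrays per slide. Per the file headers, the slide files give foreground and local background intensity for every spot on a linear scale, and the authors had neither subtracted nor normalized them. The authors' deposited value table holds intensity values equal to foreground minus background, within 0.001, for all 72576 values. Here, normexp (offset 50) corrected the background, the log2 values of a probe's 3 spots were averaged, and quantile normalization ran over 1309 named probes (R 4.3.3, limma 3.58.1). Group means were compared with limma (lmFit over all 14 arrays, eBayes, two-sided), with Benjamini-Hochberg adjustment over 343 mouse probes and a threshold of 0.05. A probe counts as above blanks where its net signal exceeds the 95th percentile of blank and negative control spots. The fit was tested on simulated data. Background correction, normalization, filter, fit, slide, replicate block and left-out arrays were varied. All members are named, as are the 3 most alike probes of members above blanks on 3 arrays and, of the other lymphocyte-linked list, the probes past the threshold and its first 4. The members and lists were chosen with earlier results of these data known. The number of arrays limits the precision.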

Additional observations from a re-analysis of the deposited data

Results flagged for a closer look

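Each of the 7 members was examined in both groups of 4 arrays, 14 sets in all, and in 2 of them 1 array lay far from the others. Chance flags about 1 in 20 such sets. miR-181c read 6.46 on nematode wild type replicate 1 against 6.04 to 6.07 on the other 3 arrays. miR-345 read 5.90 on nematode IL-4R KO replicate 2 against 6.18 to 6.23 on the others. Neither member stood above blank spots on any array of that group.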

How the results depend on the processing

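The number of members past the threshold stayed at 1 for IL-4R KO mice between elicitations and for the genotypes after nematode implantation, and at 0 for the genotypes after thioglycollate, in all 16 other settings and in all 14 fits that leave out an array. Plain subtraction and the deposited value table give the same values, yet both are included in the 16 and in every tally of settings given here. The slide as a random block (correlation -0.02) is nearly the reported fit. The miR-150 log2 difference ranged from 1.01 to 2.11 (0.93 to 1.07 with an array left out) in the first and from -2.01 to -0.95 (-1.03 to -0.87) in the second. In wild type mice the count fell from 1 to 0 with no background correction, median scaling, cyclic loess, no normalization, a fit of only the groups compared, the replicate block (limma adjusted p of miR-342 0.108) and adjustment over all named probes, the last chosen after seeing the data. With an array left out it was 0 or 1. For the interaction it rose from 0 to 1 with median scaling, cyclic loess, no normalization and quantile normalization over mouse probes, and was 0 or 1 with an array left out. The cause was not tested. Same-numbered replicates did not deviate together (r -0.24 to 0.32 over 19 pairs), so the numbers are not taken to pair samples. Of 32 member differences that did not pass, 15 changed sign under some setting, and of the 3 that passed 0 did. Counts of all probes past the threshold were taken over the probes fitted in each setting, which were not always the mouse probes. With adjustment over all named probes they included probes of other species, and another setting kept only probes above blanks. The counts ranged from 0 to 9 for elicitation in wild type against 3 as reported, and 3 to 11 in IL-4R KO against 5. For genotype they ranged from 6 to 14 after nematode implantation against 6, and from 1 to 5 after thioglycollate against 1. For the interaction they ranged from 0 to 7 against 2. Ranges over mouse probes alone were not computed. The median over all mouse probes itself moved to -0.15 with plain subtraction in IL-4R KO between elicitations, and with no normalization to 0.10 in wild type and 0.14 for the interaction; the differences above are not corrected for it.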
